A study of Mus musculus with 12 samples.

Results

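The interaction of PD-L2 overexpression with BRAF inhibitor treatment was examined in transplanted YUMM1.7 melanomas. The cells of this line, which were derived from a mouse, carry an activating Braf mutation and lack Cdkn2a, and every group shares that background. All 12 of the 12 tumors in the series entered the comparison, 3 in each of 4 groups: PD-L2 overexpression with the BRAF inhibitor (PD-L2 BRAFi), PD-L2 overexpression with vehicle (PD-L2 vehicle), no overexpression with the inhibitor (control BRAFi) and no overexpression with vehicle (control vehicle). Expression was read as FPKM (read fragments divided by transcript length in kilobases and by the size of the library) from poly(A) RNA. The response of a gene is the mean log2(FPKM + 1) of 3 BRAFi tumors minus the mean of 3 vehicle tumors. The interaction is the response in PD-L2 tumors minus the response in control tumors, so a positive value means that BRAFi tumors stood higher against vehicle with PD-L2 than without it. Of 23940 genes, the 12117 that averaged 1 FPKM or more across all tumors were tested.

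PD-L2, the product of Pdcd1lg2, is a ligand of the inhibitory receptor PD-1, which is best known from T cells. The BRAF kinase passes signals from RAS to MEK and ERK, and ERK drives transcription of its own feedback inhibitors (Dusp and Spry genes), of immediate early transcription factors and of cyclin D1. In melanomas with an activated BRAF, inhibitors of the kinase lower this output at first, and tumors that regrow under treatment often regain it. Immunodeficient hosts of the kinds named by the submitters lack T and B lymphocytes and keep macrophages, neutrophils, endothelium and other stroma. Hosts are NSG mice in the sample labels and NOD/SCID mice in the series design, a conflict that the files do not settle. The sources used here do not give the compound, its dose, the length of treatment, the promoter that drives PD-L2 or whether the overexpressing cells were 1 clone or a pool. The design text calls the treated state resistance, while the sample labels give treatment only. The labels tell tumors apart but not the mice, so p-values measure the spread between tumors.

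Library sums of FPKM ran from 499845 to 648254, and the depth in reads is unknown. PD-L2 BRAFi tumor 2 stood apart: the microRNA gene Mir2137 was at 104565 FPKM there and listed at 0 in the other 11 tumors, and small RNA genes took 21.2% of its summed FPKM against 2.76% to 6.60% elsewhere. It also had the lowest level of the Y-linked gene Ddx3y, 3.60 FPKM, against 9.97 to 29.5 FPKM in the other tumors of this male-derived line. Of 7 melanocyte genes, Mitf ran from 2.32 to 5.16 FPKM and Tyr from 0.535 to 1.63 FPKM, while Tyrp1 and Mlana were listed at 0 in 11 tumors and Dct in 10, so the pigment program that defines melanocytes was close to absent in these melanomas.

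Only 2 genes passed the threshold for the interaction, both microRNA genes and both positive: Mir212 and Mir1940. They make up 0.0165% of the 12117 tested genes (limma, Benjamini-Hochberg adjusted p under 0.05). No gene passed in the negative direction by limma, where 277 genes had an unadjusted p under 0.05. The mature products of Mir212 are shown with those of Mir132, its neighbour on the same strand, because both 3p arms carry an identical seed, the stretch that pairs with target messenger RNAs. Capitals mark the seed, bases 2 to 8 from the 5′ end.
mmu-miR-212-3p: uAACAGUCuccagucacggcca
mmu-miR-132-3p: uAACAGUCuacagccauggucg
mmu-miR-212-5p: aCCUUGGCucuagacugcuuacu
mmu-miR-132-5p: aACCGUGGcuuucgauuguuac
The sequences are from RefSeq on GRCm38.p6, where the Mir212 hairpin lies at chr11:75173388-75173478 and the Mir132 hairpin at chr11:75173682-75173747, both on the plus strand. The deposited values were made on mm9, so these positions apply only to the sequences. The 3p arms of miR-212 and miR-132 are identical over their first 9 bases and at 17 of 22 positions. No other mature sequence among the 1679 in the RefSeq table has the seed AACAGUC.

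In the tumors with PD-L2 and BRAFi, Mir212 reached 18.2, 14.8 and 18.5 FPKM, and it was listed at 0 in the 3 PD-L2 vehicle, 3 control BRAFi and 3 control vehicle tumors. All 3 tumors with both PD-L2 and the inhibitor therefore stood above the other 9, and the values did not overlap. The fitted interaction was 4.18 ± 0.215 (SE) on the log2(FPKM + 1) scale, with an adjusted p of 1.68e-05 by limma. For Mir1940 the PD-L2 BRAFi values were 11.5, 9.33 and 12.9 FPKM, and the other 9 tumors were again listed at 0. It had a fitted interaction of 3.61 ± 0.238 (SE) and an adjusted p of 1.07e-04 by limma. Both genes reached the mean of 1 FPKM needed for testing only through the PD-L2 BRAFi tumors, so a gene of this kind had to differ once tested, and these p-values describe the fit and are no independent support. With 9 tumors at 0 the estimates depend on the pseudocount of 1 FPKM and are not fold changes, and a 0 in such tables can be an estimate that failed. Mir132, whose hairpin lies next to that of Mir212, was listed at 0 in all 12 tumors.

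Zeros were the rule rather than the exception for this class of gene. Of 264 small RNA genes tested, 230 (87.1%) were listed at 0 in at least 1 tumor, against 287 (2.37%) of all 12117 tested genes. The SD of the interaction over small RNA genes was 2.19, against 0.502 over all tested genes. At an unadjusted p under 0.05 stood 24 small RNA genes (9.09%), against 4.47% of all tested genes. Mature microRNAs carry no poly(A) tail and the libraries were made from poly(A) RNA, so the values are not levels of the mature products printed above. Snora64, a small nucleolar RNA gene, was at 40.9, 66.3 and 37.0 FPKM in PD-L2 BRAFi, 27.0, 14 and 16.1 in PD-L2 vehicle, 20.8, 27.5 and 16.5 in control BRAFi and 35.7, 43.3 and 39.9 in control vehicle tumors. Its BRAFi tumors lay above vehicle with PD-L2 and below vehicle without it, with no overlap on either side (interaction 2.17 ± 0.390, SE, adjusted p 0.418 by limma).

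A search for genes above 0 in all 3 tumors of 1 group and at 0 in the other 9 found 5 genes in PD-L2 BRAFi tumors, 26 in PD-L2 vehicle tumors, 1 in control BRAFi tumors and 0 in control vehicle tumors. Only Mir212 and Mir1940 among these 32 reached a mean of 5 FPKM in their group. The genes that surround Mir212 in the annotation had interactions of -0.21 (Smg6), 0.39 (Hic1), -0.02 (Ovca2), 0.06 (Dph1) and -0.34 (Rtn4rl1). None had an adjusted p under 0.05 by limma. The Mir212 estimate depends on 9 zeros and the pseudocount, so its size cannot be compared with theirs.

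**Figure D1:**
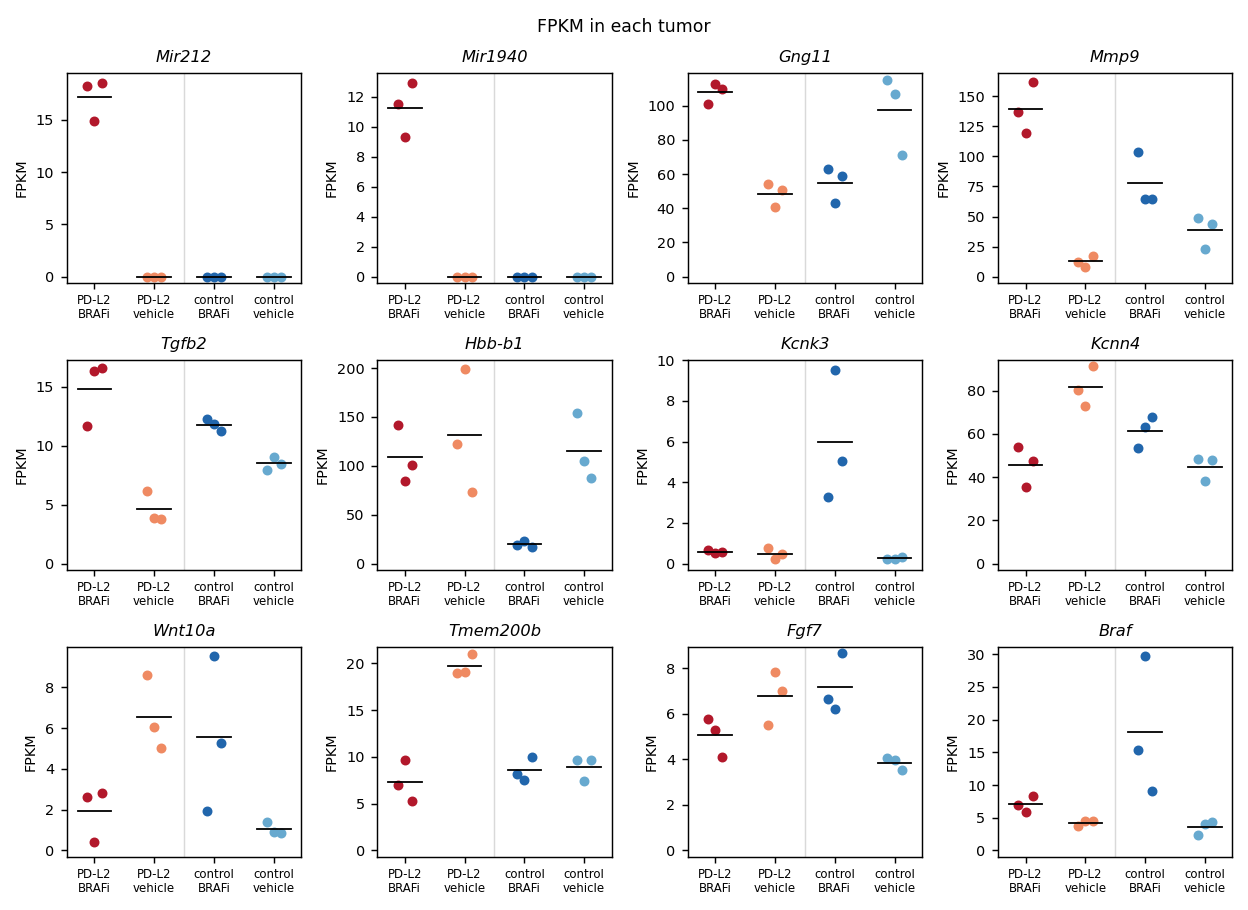
FPKM of 12 genes in each of the 12 tumors, with a line at the mean of each group of 3; every vertical axis is linear and starts at or just below 0. Mir212 and Mir1940 are above 0 only in the 3 PD-L2 BRAFi tumors, Gng11 and Wnt10a run in opposite directions in PD-L2 and control tumors, and Hbb-b1 is low in the 3 control BRAFi tumors.

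Outside these loci the data held no more small p-values than equal shares would give. At an unadjusted p under 0.05 stood 542 of 12117 genes (4.47%), where 605.85 would lie in such a bin if p-values were spread evenly. Of these, 265 had a positive interaction (2.19%) and 277 a negative one (2.29%), and over all tested genes 48.4% were above 0. The smallest adjusted p after Mir212 and Mir1940 was 0.126, for Gng11. The count of 542 moved with single tumors: it was 898 without PD-L2 BRAFi tumor 3, 888 without control vehicle tumor 3 and 368 without PD-L2 vehicle tumor 2. The middle of the distribution was narrow, with a median interaction of -0.01, a 5th percentile of -0.63 and a 95th percentile of 0.60. The median SE of an interaction was 0.236, and 534 genes had an absolute interaction of at least 1 (255 positive and 279 negative).

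**Figure D2:**
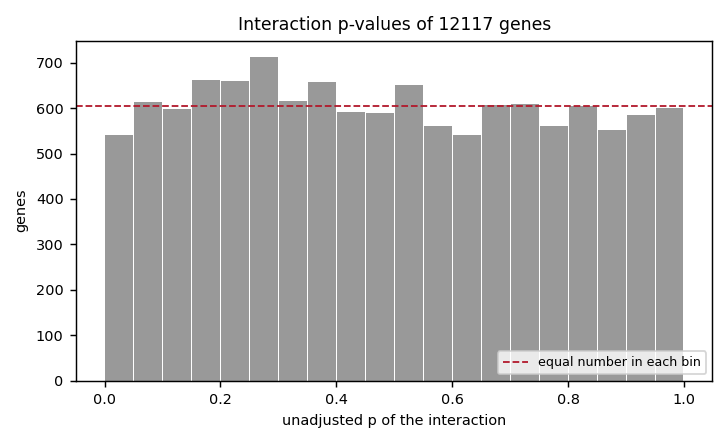
Number of genes (vertical axis) in bins of the unadjusted interaction p of 0.05 width (horizontal axis) for 12117 genes. The dashed line marks equal numbers in each bin, and the lowest bin, with 542 genes, lies below it.

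The responses of PD-L2 and control tumors to BRAFi, which share no library, were alike across genes. Pearson's r of the responses was 0.521 and Spearman's rho 0.648 over the 12117 genes, which are not independent replicates. Both responses had the same sign for 9273 genes (76.5%). Of the 425 genes higher under BRAFi in control tumors (limma, adjusted p under 0.05), 411 (96.7%) had a positive response in PD-L2 tumors, with a median response of 0.44 in PD-L2 tumors and 0.753 in control tumors. Of the 474 genes lower in control tumors, 461 (97.3%) had a negative response in PD-L2 tumors, with medians of -0.40 in PD-L2 and -0.67 in control tumors. In the reverse direction, 20 of the 22 genes higher under BRAFi in PD-L2 tumors had a positive response in control tumors, with medians of 1.68 in PD-L2 and 0.68 in control tumors, and all 7 genes lower in PD-L2 tumors had a negative one. Calls themselves were far apart in number, 29 genes (0.239%) in PD-L2 and 899 (7.42%) in control tumors, and a gene called in control tumors only is not thereby shown to interact. A response chosen for its size in 1 set of tumors tends to be smaller in another, so the medians do not measure a weaker response.

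**Figure D3:**
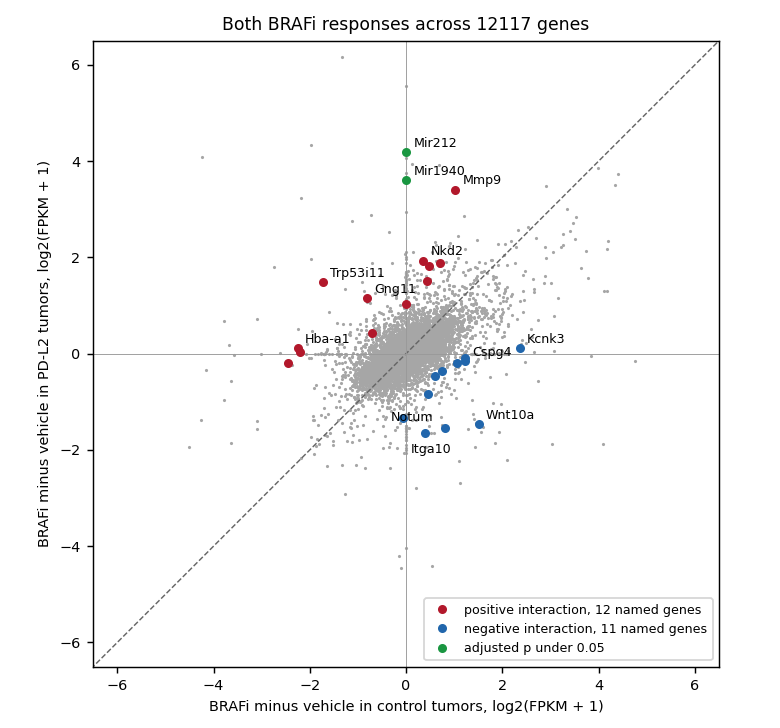
BRAFi minus vehicle in PD-L2 tumors (vertical axis) against control tumors (horizontal axis), both in log2(FPKM + 1), for 12117 genes, with equal responses on the dashed diagonal. Mir212 and Mir1940 (green) lie at 0 on the horizontal axis, and the named genes in red and blue lie off the diagonal on either side.

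Among the 542 genes with an unadjusted p under 0.05, the responses had opposite signs in 358 (66.1%), against 23.5% of all tested genes. In 118 of them (21.8%) the signs were equal and the response larger in control tumors, and in 66 (12.2%) equal and larger in PD-L2 tumors. The difference between PD-L2 and control tumors was larger under vehicle than under BRAFi in 336 of the 542 (62.0%), against 54.0% of all tested genes. These shares describe genes picked by the interaction itself and carry no test.

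The 12 coding genes with the smallest interaction p in the positive direction, all uncalled, held a matrix protease, a growth factor, an integrin and 3 globins. Mmp9, a secreted gelatinase that cuts basement membrane collagen, was at 137, 119 and 161 FPKM in PD-L2 BRAFi, 12.3, 8.43 and 17.2 in PD-L2 vehicle, 104, 64.5 and 64.9 in control BRAFi and 49.0, 22.9 and 43.8 in control vehicle tumors. BRAFi tumors lay above vehicle tumors in both backgrounds without overlap, and the PD-L2 vehicle tumors were the lowest of all. The responses were 3.40 in PD-L2 and 1.03 in control tumors (interaction 2.38 ± 0.448, SE, adjusted p 0.443 by limma). Tgfb2, a ligand of the TGF-beta receptors, was at 11.6, 16.3 and 16.6 FPKM in PD-L2 BRAFi, 6.19, 3.82 and 3.79 in PD-L2 vehicle, 12.3, 11.8 and 11.2 in control BRAFi and 7.97, 9.03 and 8.48 in control vehicle tumors. BRAFi tumors were again the higher ones in both backgrounds, and levels under BRAFi overlapped between PD-L2 and control tumors (interaction 1.08 ± 0.244, SE, adjusted p 0.700). Itga1, a subunit of a collagen-binding integrin, had the same order, with 12.5, 20.3 and 14.4 FPKM in PD-L2 BRAFi, 4.51, 3.50 and 2.55 in PD-L2 vehicle, 15.9, 17.1 and 13.2 in control BRAFi and 6.86, 9.31 and 11.6 in control vehicle tumors (interaction 1.19 ± 0.321, SE, adjusted p 0.956). For Mmp9, Tgfb2 and Itga1 the PD-L2 vehicle tumors lay below the control vehicle tumors without overlap, and for Tgfb2 and Itga1 the BRAFi tumors of both backgrounds overlapped.

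Gng11, a gamma subunit of heterotrimeric G proteins, came closest to the threshold among coding genes. It was at 101, 113 and 110 FPKM in PD-L2 BRAFi, 54.0, 40.5 and 50.7 in PD-L2 vehicle, 63.1, 43.0 and 59.1 in control BRAFi and 115, 107 and 71.1 in control vehicle tumors. Tumors with both or neither of the interventions stood above those with only 1 of them, without overlap. The responses were 1.15 in PD-L2 and -0.80 in control tumors (interaction 1.95 ± 0.282, SE, adjusted p 0.126 by limma), and without control vehicle tumor 3 the interaction was 2.16 and passed. Zfp503, a zinc finger repressor of transcription, had responses of the same signs as Gng11 at a smaller size, with 15.0, 15.9 and 20.8 FPKM in PD-L2 BRAFi, 13.8, 12.6 and 11.2 in PD-L2 vehicle, 8.84, 6.97 and 8.89 in control BRAFi and 14.9, 13.1 and 14.1 in control vehicle tumors (interaction 1.13 ± 0.196, SE, adjusted p 0.418). The control BRAFi tumors were its lowest 3, and its PD-L2 vehicle and control vehicle tumors overlapped. Prdm1, the repressor Blimp-1, had a response of 1.82 in PD-L2 and 0.48 in control tumors, and Nkd2, which antagonises Wnt signalling at Dishevelled, 1.93 in PD-L2 and 0.36 in control tumors. Their interactions were 1.35 ± 0.383 and 1.57 ± 0.380 (SE), with adjusted p of 0.956 and 0.830. Nkd2 was at 4.83 FPKM or more in PD-L2 BRAFi and in all control tumors and at 1.02 to 1.53 FPKM in PD-L2 vehicle tumors, its 3 lowest. Ankrd44, an ankyrin repeat protein, was at 14.6, 12.5 and 15.3 FPKM in PD-L2 BRAFi tumors and between 6.01 and 11 FPKM in the other 9, none of which reached the PD-L2 BRAFi values (interaction 1.04 ± 0.287, SE, adjusted p 0.956). Trp53i11, named for its induction by p53, had the largest estimate of these 12, 3.22 ± 0.765 (SE), with an adjusted p of 0.808. Its values scattered widely in PD-L2 BRAFi tumors, at 56.8, 98.4 and 17.6 FPKM.

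The globin genes stood out through the control BRAFi tumors. Hbb-b1, a beta globin of red blood cells, was at 141, 84.1 and 100.5 FPKM in PD-L2 BRAFi, 122, 199 and 73.0 in PD-L2 vehicle, 19.1, 22.9 and 17.3 in control BRAFi and 154, 105 and 87.7 in control vehicle tumors. All 3 control BRAFi tumors were below the other 9, which overlapped with each other. The responses were -0.19 in PD-L2 and -2.46 in control tumors (interaction 2.27 ± 0.479, SE, adjusted p 0.560 by limma). Hba-a1 and Hbb-b2 had interactions of 2.36 ± 0.505 and 2.24 ± 0.432 (SE), with adjusted p of 0.575 and 0.466. Hbb-b1 and Hbb-b2 are near-identical and can share reads. All 3 globins belong to red blood cells, so they are not separate evidence. In bulk tumors, fewer cells of a type and less RNA per cell cannot be told apart, which here concerns the amount of blood in the samples.

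In the negative direction the 12 genes held Wnt and growth factor signals, ion channels and surface proteins. Wnt10a, a secreted Wnt ligand, was at 2.61, 0.404 and 2.83 FPKM in PD-L2 BRAFi, 8.62, 6.05 and 5.01 in PD-L2 vehicle, 1.95, 9.52 and 5.24 in control BRAFi and 1.42, 0.894 and 0.836 in control vehicle tumors. BRAFi tumors lay below vehicle with PD-L2 and above it without PD-L2, with no overlap within either background. The responses were -1.46 in PD-L2 and 1.51 in control tumors (interaction -2.97 ± 0.665, SE, adjusted p 0.700 by limma). Notum, a secreted enzyme that inactivates Wnt ligands, had an interaction of -2.34 ± 0.646 (SE, adjusted p 0.956), in which 1 tumor weighed heavily. Its values were 5.55, 2.86 and 3.75 FPKM in PD-L2 BRAFi, 14.1, 11.6 and 14.7 in PD-L2 vehicle, 6.50, 23.8 and 4.14 in control BRAFi and 5.24, 4.07 and 4.75 in control vehicle tumors. Without control BRAFi tumor 2 its interaction was -1.68. Fgf7, a fibroblast growth factor made by mesenchyme, was at 5.80, 5.30 and 4.09 FPKM in PD-L2 BRAFi, 5.49, 7.86 and 7.02 in PD-L2 vehicle, 6.66, 6.23 and 8.68 in control BRAFi and 4.07, 3.99 and 3.52 in control vehicle tumors. The 3 control vehicle tumors were its lowest, and the BRAFi and vehicle tumors with PD-L2 overlapped (interaction -1.10 ± 0.228, SE, adjusted p 0.543).

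Kcnn4, a potassium channel opened by calcium, was at 53.8, 35.3 and 47.4 FPKM in PD-L2 BRAFi, 80.3, 72.9 and 91.3 in PD-L2 vehicle, 53.5, 63.3 and 67.8 in control BRAFi and 48.3, 38.2 and 48.1 in control vehicle tumors. The PD-L2 vehicle tumors were the highest 3, and the directions were opposite in both backgrounds (interaction -1.29 ± 0.238, SE, adjusted p 0.418). Kcnk3, a background potassium channel, was below 0.75 FPKM in PD-L2 BRAFi, PD-L2 vehicle and control vehicle tumors alike and at 3.29, 9.54 and 5.05 FPKM in control BRAFi tumors (interaction -2.25 ± 0.408, SE, adjusted p 0.418). Atp10a, a phospholipid flippase, was at 13, 9.69 and 14 FPKM in PD-L2 BRAFi, 11.5, 13.1 and 14.6 in PD-L2 vehicle, 22.2, 24.5 and 19.7 in control BRAFi and 7.10, 8.29 and 11.7 in control vehicle tumors. For Kcnk3 and Atp10a the control BRAFi tumors were the 3 highest and the PD-L2 tumors did not separate by treatment. The Atp10a interaction was -1.32 ± 0.258 (SE, adjusted p 0.468).

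Tmem200b, a transmembrane protein, was highest in PD-L2 vehicle tumors, with 7.04, 9.72 and 5.34 FPKM in PD-L2 BRAFi, 19.0, 19.0 and 21.0 in PD-L2 vehicle, 8.16, 7.49 and 10.03 in control BRAFi and 9.68, 7.45 and 9.66 in control vehicle tumors (interaction -1.28 ± 0.259, SE, adjusted p 0.530). Itga10, an alpha subunit of another collagen-binding integrin, had the same shape, at most 4.12 FPKM in PD-L2 BRAFi and in all control tumors and 4.19 to 6.0 FPKM in PD-L2 vehicle tumors (interaction -2.05 ± 0.431, SE, adjusted p 0.560). Cspg4, the NG2 proteoglycan of melanoma cells and pericytes, had responses of -0.16 in PD-L2 and 1.22 in control tumors, and Sema3b, a secreted guidance factor, -0.18 in PD-L2 and 1.06 in control tumors. In both genes the 3 control vehicle tumors were the lowest. B4galt5, a galactosyltransferase of glycolipid synthesis, ran in opposite directions in PD-L2 and control tumors, with an interaction of -1.08 ± 0.294 (SE).

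**Figure D4:**
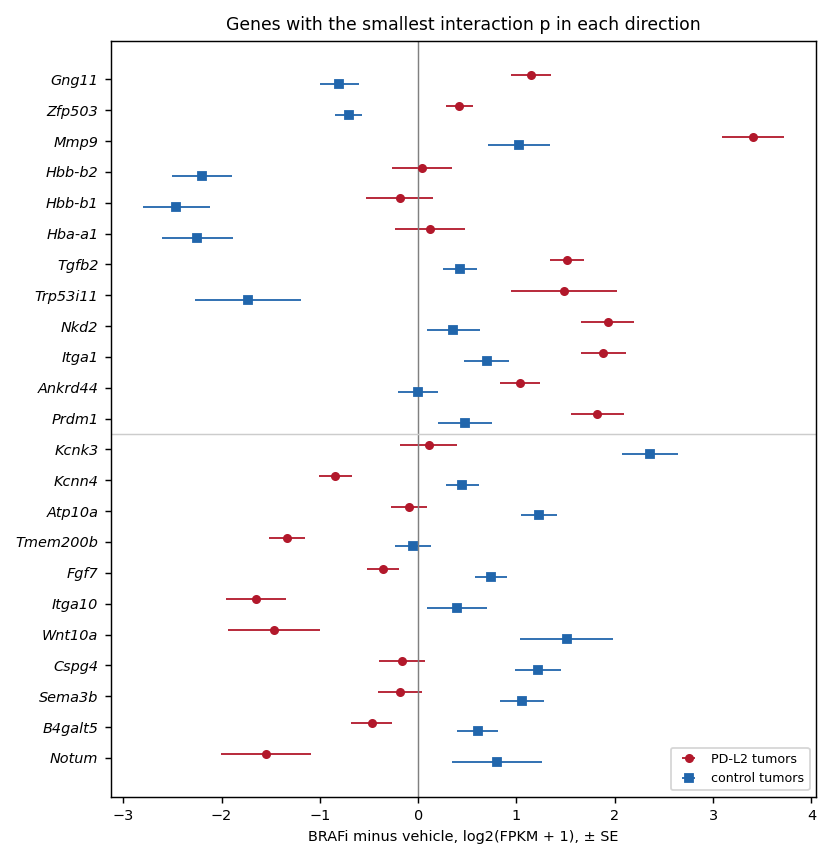
BRAFi minus vehicle in log2(FPKM + 1), with its SE, in PD-L2 tumors (red circles, upper of each pair) and control tumors (blue squares) for coding genes with the smallest interaction p in each direction, 12 positive and 11 negative. Gng11, Zfp503 and Trp53i11 are positive in PD-L2 and negative in control tumors, and Kcnn4, Fgf7 and Wnt10a are among those with the reverse; none of those plotted passed the threshold.

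A stricter view asked for genes whose 3 BRAFi tumors all lay above the 3 vehicle tumors in 1 background and all below them in the other. Only 27 genes did so (0.223% of those tested), 12 with BRAFi above vehicle in PD-L2 tumors (0.099%) and 15 with BRAFi below vehicle in PD-L2 tumors (0.124%). Besides Gng11 and Zfp503, the named genes of the upward kind were Marcksl1 (an actin-binding substrate of protein kinase C), Tmem159, 6330416G13Rik and Syap1. Marcksl1 was at 75.9, 112 and 91.9 FPKM in PD-L2 BRAFi, 73.3, 71.7 and 69.1 in PD-L2 vehicle, 61.0, 53.5 and 61.1 in control BRAFi and 96.6, 64.3 and 75.3 in control vehicle tumors. Its groups came close to touching in both backgrounds (interaction 0.77 ± 0.234, SE, adjusted p 0.956 by limma). The other 3 had interactions of 0.27 to 0.63. Besides Wnt10a, B4galt5 and Kcnn4, the downward kind held Ank, a membrane protein that lets pyrophosphate and ATP leave the cell, and Gtse1, a microtubule-binding protein of dividing cells. Ank was at 534, 649 and 428 FPKM in PD-L2 BRAFi, 739, 766 and 875 in PD-L2 vehicle, 538, 736 and 665 in control BRAFi and 503, 463 and 491 in control vehicle tumors. It was the most abundant of the named genes of this kind, highest in PD-L2 vehicle tumors (interaction -0.98 ± 0.229, SE, adjusted p 0.808). Leaving out any 1 of the 12 tumors gave 42 (without PD-L2 BRAFi tumor 2) to 98 genes (without PD-L2 BRAFi tumor 3). With 1 tumor fewer the rule is easier to meet, so the count could not fall. The rise therefore does not measure how far single tumors carried the 27 genes.

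To see whether pathways stood off the bulk of genes, 63 lists of pathway and cell type genes were described by their medians. None of the 921 list genes tested passed the threshold by limma. At an unadjusted p under 0.05 stood 76 of them (8.25%, against 4.47% of all tested genes), 29 positive and 47 negative, but the lists were chosen with results of these tumors known, so that share is no independent finding. The median interaction over all tested genes was -0.01, with 48.4% of genes above 0, and list medians are read against these. Of the 60 lists with at least 5 tested members, 56 had a median that moved over 1.5 times without at least 1 tumor. The exceptions were the erythroid, pericyte, p53 target and caveolin lists. In 31 lists the median changed sign. A median near 0 passes such a ratio, or changes sign, with a small shift. The hypoxia and glycolysis median of 0.006 passed it in all 12 fits with a tumor left out. For lists near 0 these counts do not show that 1 tumor carried the median. Ranges below give the lowest and highest median with 1 tumor left out.

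Genes of MAPK output, those driven by ERK, had mostly negative interactions, none past the threshold. Of 21 tested genes of MAPK output, 4 had a positive and 17 a negative interaction, with a median of -0.28 and 2 at an unadjusted p under 0.05. The median was -0.47 without control vehicle tumor 3, -0.43 without control BRAFi tumor 1 and -0.16 without control BRAFi tumor 2. Their median response was 0.47 in PD-L2 and 0.81 in control tumors, so both medians were above 0. The 2 genes were Ccnd1 (cyclin D1, which moves cells through G1) and Epha2 (an ephrin receptor induced by ERK). Ccnd1 was at 273, 247 and 400 FPKM in PD-L2 BRAFi, 258, 307 and 419 in PD-L2 vehicle, 299.8, 421 and 323 in control BRAFi and 193, 205 and 250 in control vehicle tumors. Its control vehicle tumors were below control BRAFi, and its PD-L2 tumors overlapped between treatments (interaction -0.78 ± 0.320, SE, adjusted p 0.956). The feedback inhibitors Spry4 and Dusp6 had similar responses, 1.16 and 0.89 in PD-L2 and 1.40 and 0.81 in control tumors. Their interactions of -0.24 ± 0.294 and 0.07 ± 0.313 (SE) were within their errors, and that of Dusp6 was negative (-0.08) after libraries were rescaled to equal sums.

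Immediate early genes, the transcription factors switched on within minutes of ERK activation, had a median interaction of -0.43, with 16 of 19 negative and 4 at an unadjusted p under 0.05. Fosb, an AP-1 subunit, was at 5.92, 2.68 and 5.17 FPKM in PD-L2 BRAFi, 5.46, 6.38 and 3.55 in PD-L2 vehicle, 7.95, 6.92 and 7.40 in control BRAFi and 2.05, 2.41 and 3.89 in control vehicle tumors. Control BRAFi tumors were its 3 highest and PD-L2 tumors overlapped (interaction -1.34 ± 0.374, SE, adjusted p 0.956). Egr3, a zinc finger factor, had responses of 1.47 in PD-L2 and 2.87 in control tumors, both without overlap of BRAFi and vehicle tumors. Nr4a2, an orphan nuclear receptor, had -0.70 in PD-L2 and 0.83 in control tumors. Leaving out control BRAFi tumor 3 gave a list median of -0.29. The list median was -0.17 without PD-L2 BRAFi tumor 2, the tumor with the lowest Fosb of its group and with Egr1 at 24.4 FPKM, against 92.9 and 104 FPKM in the other 2.

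Among 17 genes of the RAS, RAF, MEK and ERK core, 7 interactions were positive and 10 negative, with a median of -0.07 that ran from -0.16 without PD-L2 BRAFi tumor 3 to about 0 (0.000875) without control BRAFi tumor 2. Braf, the target of the inhibitor, had the smallest p of this list. It was at 6.97, 5.84 and 8.35 FPKM in PD-L2 BRAFi, 3.76, 4.55 and 4.48 in PD-L2 vehicle, 15.3, 29.7 and 9.14 in control BRAFi and 2.30, 4.10 and 4.43 in control vehicle tumors. BRAFi tumors were above vehicle tumors in both backgrounds, and each control BRAFi tumor was above each PD-L2 BRAFi tumor. The responses were 0.61 in PD-L2 and 1.93 in control tumors (interaction -1.33 ± 0.479, SE, unadjusted p 0.0190, adjusted p 0.956 by limma), and the interaction was -0.91 without control BRAFi tumor 2. Rasa1, a GTPase-activating protein that turns RAS off, had responses of 0.58 in PD-L2 and 1.08 in control tumors. The gene values cover all transcripts of Braf together, so altered forms of the transcript cannot be seen in them.

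**Figure D5:**
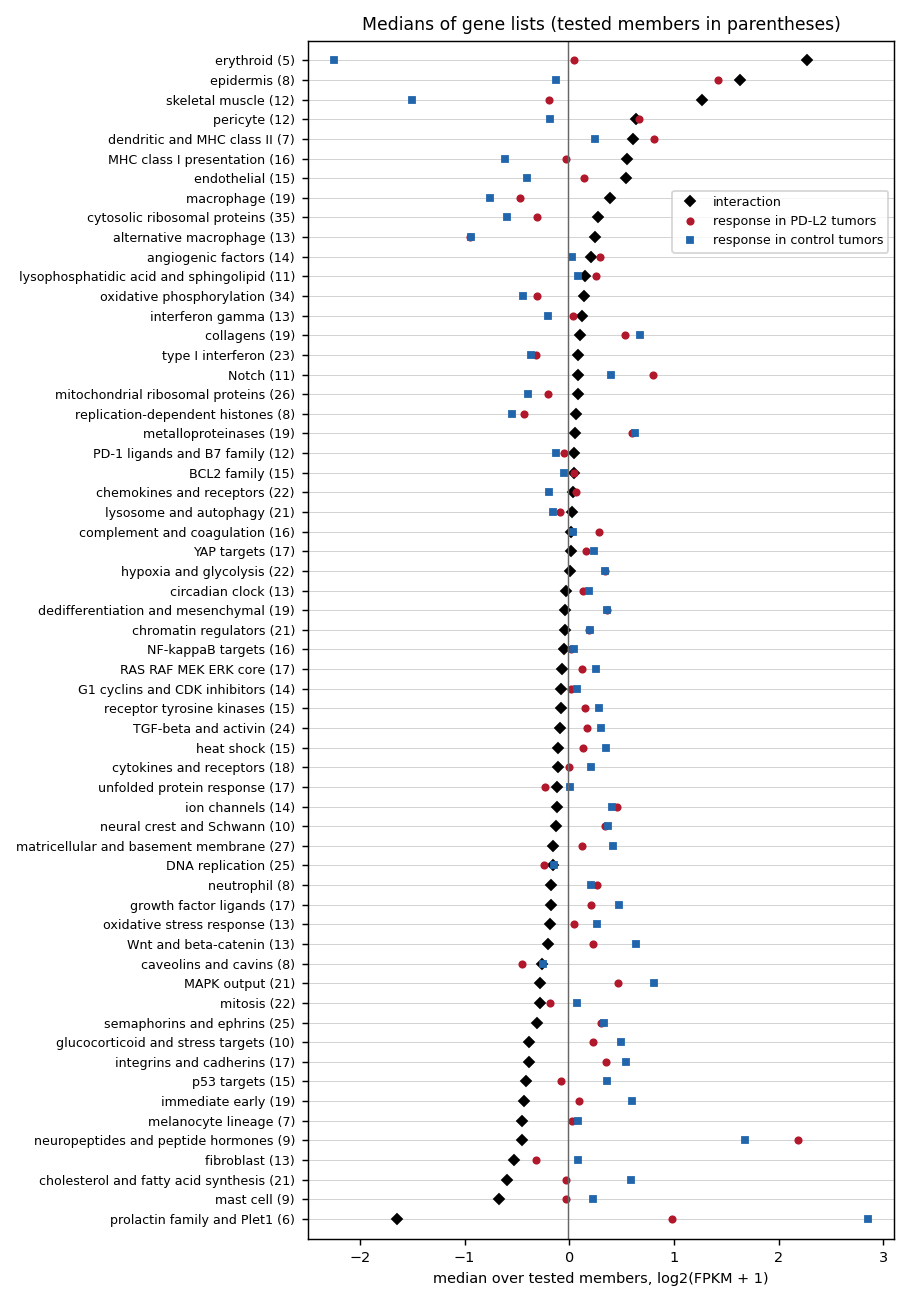
Median over the tested members of each gene list of the interaction (black diamonds), the response in PD-L2 tumors (red circles) and the response in control tumors (blue squares), in log2(FPKM + 1), with the number of tested members in parentheses. Erythroid, epidermis and skeletal muscle lists lie at the positive end and the prolactin list at the negative end; the vertical line marks the median interaction of all tested genes.

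Growth factors and their receptors followed no common direction. Of 17 tested ligands, 6 interactions were positive and 11 negative, with 4 of the negative ones at an unadjusted p under 0.05. Areg, an EGF receptor ligand, was at 25.1, 4.71 and 40.3 FPKM in PD-L2 BRAFi, 8.72, 15.5 and 17.3 in PD-L2 vehicle, 28, 60.1 and 29.97 in control BRAFi and 3.29, 6.0 and 6.89 in control vehicle tumors. Control BRAFi tumors were all above control vehicle tumors, while PD-L2 BRAFi tumor 2 was the lowest of the PD-L2 tumors. The interaction was -2.26 ± 0.883 (SE, adjusted p 0.956 by limma) and -1.42 without that tumor. Pdgfa, a ligand of the PDGF alpha receptor, had responses of -0.47 in PD-L2 and 0.48 in control tumors (interaction -0.94 ± 0.328, SE). Over 15 receptor tyrosine kinases the median interaction was -0.08 (-0.23 without control BRAFi tumor 1 and -0.00195 without control BRAFi tumor 2), and Axl, a receptor often raised in resistant melanoma, had responses of -0.03 in PD-L2 and 0.34 in control tumors.

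In the TGF-beta and activin list of 24 genes, 11 interactions were positive and 13 negative. Postn, a matrix protein induced by TGF-beta, was at 333, 446 and 352 FPKM in PD-L2 BRAFi, 183, 121 and 80.5 in PD-L2 vehicle, 663, 444 and 511 in control BRAFi and 423, 409 and 366 in control vehicle tumors. The PD-L2 vehicle tumors were the lowest, as for Mmp9 and Tgfb2 (interaction 1.20 ± 0.368, SE, adjusted p 0.956). The 13 genes of Wnt and beta-catenin signalling split into 5 positive and 8 negative. In the Notch list Notch4, a receptor of endothelium, and the ligand Dll4 had interactions of 1.40 ± 0.418 and 1.01 ± 0.384 (SE), with responses of 1.19 and 1.18 in PD-L2 and -0.21 and 0.17 in control tumors. Dll1, another ligand, had -1.13 ± 0.571 (SE), which was -0.70 without PD-L2 BRAFi tumor 2.

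Matrix genes had positive median responses in both backgrounds. The median responses of 19 collagen genes were 0.53 in PD-L2 and 0.67 in control tumors, with a median interaction of 0.10 (-0.17 without PD-L2 vehicle tumor 3 to 0.27 without PD-L2 vehicle tumor 1). Those of 19 metalloproteinase genes were 0.60 in PD-L2 and 0.63 in control tumors, with a median interaction of 0.05 (-0.11 without control BRAFi tumor 3 to 0.13 without PD-L2 vehicle tumor 2). Without PD-L2 BRAFi tumor 2 these medians were -0.0020 for collagens and -0.08 for metalloproteinases, so neither has a stable sign. Col15a1, a basement membrane collagen, and Vcan, the proteoglycan versican, had interactions of 1.13 ± 0.425 and 1.15 ± 0.425 (SE), and that of Col15a1 was 0.75 without control BRAFi tumor 2. Mmp14, a membrane-bound protease that activates others, was at 608, 690 and 631 FPKM in PD-L2 BRAFi, 434, 414 and 424 in PD-L2 vehicle, 393, 337 and 385 in control BRAFi and 341, 319 and 461 in control vehicle tumors. Its PD-L2 BRAFi tumors were above all other 9 (interaction 0.59 ± 0.193, SE, unadjusted p 0.0115, adjusted p 0.956). Fn1 (fibronectin) and Spp1 (osteopontin, a secreted phosphoprotein) had negative estimates, -0.95 ± 0.379 and -1.20 ± 0.431 (SE). For Fn1 the response was -0.43 in PD-L2 and 0.52 in control tumors, and for Spp1 -0.61 in PD-L2 and 0.58 in control tumors.

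The lineage genes of melanocytes were too low to describe as a program, with 7 of 20 list members tested. Sox10, the neural crest factor that maintains them, was at 1.38, 0.722 and 0.131 FPKM in PD-L2 BRAFi, 0.539, 0.291 and 0.569 in PD-L2 vehicle, 24.9, 0.0910 and 6.66 in control BRAFi and 0.367, 0.0859 and 0.0307 in control vehicle tumors. Control BRAFi tumors 1 and 3 were above all other tumors, and its interaction of -2.19 ± 1.22 (SE, adjusted p 0.956) was -1.14 without control BRAFi tumor 1 and -3.42 without control BRAFi tumor 2.

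No gene of the cell cycle and survival lists passed the threshold for the interaction. All 22 mitosis genes had a negative interaction, from -0.51 to -0.05 with a median of -0.28, and 0 were at an unadjusted p under 0.05. Leaving out PD-L2 vehicle tumor 3 brought the median to -0.15. Their median response was -0.19 in PD-L2 and 0.07 in control tumors, and their summed level ran from 468 to 564 FPKM in PD-L2 BRAFi, 582 to 719 in PD-L2 vehicle, 515 to 649 in control BRAFi and 559 to 651 in control vehicle tumors. The sums of PD-L2 BRAFi and PD-L2 vehicle tumors did not overlap, and those of the control groups did. Of 25 replication genes, 19 were negative (median -0.16, from -0.24 without control BRAFi tumor 2 to -0.08 without control BRAFi tumor 1). Cdkn1b, the CDK inhibitor p27, had responses of 0.13 in PD-L2 and -0.64 in control tumors. Bcl2l1, the survival gene for BCL-xL, was at 44.6, 33.8 and 38.5 FPKM in PD-L2 BRAFi, 36.9, 47.0 and 45.5 in PD-L2 vehicle, 46.5, 40.6 and 37.9 in control BRAFi and 30.1, 24.4 and 26.5 in control vehicle tumors. The control vehicle tumors were the lowest 3 (interaction -0.75 ± 0.197, SE, unadjusted p 0.00316, adjusted p 0.956). Over 15 p53 targets the median was -0.42, with 12 negative.

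Cholesterol and fatty acid synthesis leaned furthest of the metabolic lists. All 21 tested genes had a negative interaction, between -0.91 and -0.04 with a median of -0.59, and 2 were at an unadjusted p under 0.05. The median response was -0.03 in PD-L2 and 0.59 in control tumors. Fasn, the fatty acid synthase, was at 29.0, 34.3 and 34.0 FPKM in PD-L2 BRAFi, 30.3, 34.1 and 35.0 in PD-L2 vehicle, 30.5, 35.7 and 30.8 in control BRAFi and 16.2, 15.9 and 27.5 in control vehicle tumors. Its control vehicle tumors were the lowest 3, and the other groups overlapped (interaction -0.75 ± 0.259, SE, unadjusted p 0.0155, adjusted p 0.956). Srebf2, the transcription factor of sterol synthesis, had -0.59 ± 0.238 (SE), with responses of -0.12 in PD-L2 and 0.48 in control tumors, and -0.38 without control BRAFi tumor 2. The list median stayed negative in all 26 alternative fits, from -0.78 to -0.15. The value of -0.15 came from a change of processing, not from leaving out a tumor. With single tumors left out, the weakest medians were -0.36 without PD-L2 vehicle tumor 3 and -0.35 without control BRAFi tumor 2. Genes of 1 pathway move together from tumor to tumor, so 21 equal signs are not 21 observations.

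Of the cytosolic ribosomal protein genes, 35 of 35 had a positive interaction, with a median of 0.28 that was 0.15 without control vehicle tumor 1 and 0.42 without control vehicle tumor 3. Their median response was -0.31 in PD-L2 and -0.60 in control tumors, and 0 were at an unadjusted p under 0.05. Rps14 was at 1464, 1143 and 1277 FPKM in PD-L2 BRAFi, 1866, 1562 and 1839 in PD-L2 vehicle, 905, 941 and 958 in control BRAFi and 2590, 2188 and 1231 in control vehicle tumors. Of 34 oxidative phosphorylation genes 28 were positive (median 0.14, from 0.04 without control vehicle tumor 1 to 0.24 without control vehicle tumor 3), and Ndufb8, a subunit of complex I, had 0.55 ± 0.226 (SE). These genes are short, and transcript length moved with the responses over all genes: Spearman's rho with length was 0.413 for the response in PD-L2 and 0.456 for that in control tumors, and -0.192 for the interaction (12039 genes). The median interaction was 0.09 among the shortest transcripts and -0.09 among the longest, of 5 equal length bins. After the trend with length was removed, the median was 0.20 for cytosolic ribosomal proteins and 0.03 for oxidative phosphorylation; the part of length in these values was not tested further.

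Genes of MHC class I presentation, which display peptides to T cells, all had a positive interaction (16 of 16), with a median of 0.55 and 0 at an unadjusted p under 0.05. The median response was -0.03 in PD-L2 and -0.61 in control tumors. Psmb9, an immunoproteasome subunit, was at 16.3, 7.69 and 3.55 FPKM in PD-L2 BRAFi, 14.2, 10.5 and 4.61 in PD-L2 vehicle, 24.7, 5.18 and 15.2 in control BRAFi and 34.4, 22.2 and 26.3 in control vehicle tumors. The list rested on control BRAFi tumor 2, the lowest of its group for Psmb9, since its median was -0.13 without that tumor; it was 0.04 without PD-L2 BRAFi tumor 1 and 1.18 without control BRAFi tumor 1. The type I interferon and interferon gamma lists had medians of 0.09 and 0.12, with medians of -0.64 and -0.46 without control BRAFi tumor 2 and of 0.80 and 0.75 without control BRAFi tumor 1.

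Lists of blood and host cell markers differed in direction. All 5 tested erythroid genes had a positive interaction, with a median of 2.27 (1.91 to 2.62 with 1 tumor left out), and all 5 were at an unadjusted p under 0.05. The summed level of the 8 erythroid genes was 164 to 267 FPKM in PD-L2 BRAFi, 132 to 386 in PD-L2 vehicle, 31.1 to 44.7 in control BRAFi and 192 to 287 in control vehicle tumors. Of 15 tested endothelial genes 13 were positive (median 0.54, from 0.19 without PD-L2 BRAFi tumor 2 to 0.82 without PD-L2 BRAFi tumor 3), none at an unadjusted p under 0.05, and the sums overlapped fully: 216 to 353 FPKM in PD-L2 BRAFi, 228 to 312 in PD-L2 vehicle, 217 to 350 in control BRAFi and 249 to 337 in control vehicle tumors. Of 12 pericyte genes 11 were positive (median 0.64, from 0.45 without PD-L2 BRAFi tumor 2 to 0.80 without PD-L2 BRAFi tumor 3). Their sums were 216 to 328 FPKM in PD-L2 BRAFi, 145 to 181 in PD-L2 vehicle, 208 to 312 in control BRAFi and 185 to 232 in control vehicle tumors. In the pericyte list 1 positive and 1 negative gene were at an unadjusted p under 0.05 by limma. Cspg4 was the only negative gene of the list and had its smallest p (interaction -1.38, unadjusted p 0.00161). The positive gene was Higd1b (interaction 1.89, unadjusted p 0.0383). Higd1b was at 3.48, 7.63 and 0.706 FPKM in PD-L2 BRAFi tumors alone, which spans most of its range.

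Of 19 macrophage genes 17 were positive, none at an unadjusted p under 0.05, with a median of 0.39 that was 0.02 without PD-L2 BRAFi tumor 2, 0.07 without PD-L2 vehicle tumor 3, 0.88 without PD-L2 BRAFi tumor 3 and 0.11 without control BRAFi tumor 2. The sums were 847 to 2539 FPKM in PD-L2 BRAFi, 1344 to 3017 in PD-L2 vehicle, 1146 to 2445 in control BRAFi and 2979 to 4461 in control vehicle tumors. Cx3cr1, a chemokine receptor of macrophages and microglia, was at 7.14, 36.1 and 3.64 FPKM in PD-L2 BRAFi, 25.5, 20.3 and 9.83 in PD-L2 vehicle, 15.2, 3.78 and 12.8 in control BRAFi and 37.3, 36.7 and 37.8 in control vehicle tumors. PD-L2 BRAFi tumor 2 was alone in its group at the level of the control vehicle tumors. The 13 fibroblast genes had a median of -0.53, with 9 negative, and the 9 mast cell genes one of -0.67, with 8 negative. The fibroblast median ran from -0.87 without PD-L2 vehicle tumor 3 to -0.16 without PD-L2 BRAFi tumor 3 and -0.15 without PD-L2 vehicle tumor 1. That of mast cells ran from -1.16 without PD-L2 BRAFi tumor 3 to -0.12 without PD-L2 BRAFi tumor 1, and was -0.27 without control BRAFi tumor 2.

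Skeletal muscle and epidermis genes, typical of host tissue around a tumor, were positive throughout (12 of 12 and 8 of 8, medians 1.27 and 1.63), and single tumors carried these medians. The muscle sum reached 542 FPKM in a control vehicle tumor and its median was -0.15 without control vehicle tumor 3 and 0.17 without PD-L2 BRAFi tumor 3. The epidermis sum reached 267 FPKM in a PD-L2 BRAFi tumor, against 14.03 FPKM or less in all tumors of the other 3 groups, and its median was 0.01 without PD-L2 BRAFi tumor 3. The prolactin family and Plet1, placental genes, had 6 of 6 negative interactions (median -1.64). This median ran from -2.64 without control BRAFi tumor 3 to -1.14 without control BRAFi tumor 2, and was -0.31 in the weakest alternative fit. The sums were 18.3 to 41.5 FPKM in PD-L2 BRAFi, 3.40 to 7.55 in PD-L2 vehicle, 29.2 to 514 in control BRAFi and 4.04 to 12.8 in control vehicle tumors. Control BRAFi tumor 2 held the sum of 514 FPKM. No gene of the endothelial, pericyte, fibroblast or macrophage lists was listed at 0 in any tumor. Of 12 lymphocyte and NK genes in the table, 1 was tested and 10 were listed at 0 in at least 1 tumor. The part of these cell types in the interactions of single genes was not tested.

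The introduced gene itself separated the groups by label. Pdcd1lg2 was at 176, 20.8 and 171 FPKM in PD-L2 BRAFi, 41.3, 58.2 and 114 in PD-L2 vehicle, 0.898, 3.54 and 0.863 in control BRAFi and 0.164, 0.133 and 0.278 in control vehicle tumors. Every PD-L2 tumor was above every control tumor, and the BRAFi and vehicle tumors overlapped with PD-L2 but not without it. The table cannot tell RNA of the introduced copy and of the endogenous gene apart, so the responses of 0.40 in PD-L2 and 1.08 in control tumors may concern different RNAs. The interaction was -0.68 ± 1.02 (SE, adjusted p 0.965 by limma), and 0.32 without PD-L2 BRAFi tumor 2, whose level was the lowest of the 6 PD-L2 tumors. Of 12 tested genes of the B7 family, 6 were positive and 6 negative (median 0.05, from -0.12 without control BRAFi tumor 2 to 0.09 without PD-L2 BRAFi tumor 3, and -0.06 without PD-L2 BRAFi tumor 2). Cd274, which encodes the related ligand PD-L1, was at 4.06, 1.47 and 2.93 FPKM in PD-L2 BRAFi, 1.60, 2.08 and 1.37 in PD-L2 vehicle, 4.79, 6.33 and 6.21 in control BRAFi and 2.49, 2.13 and 2.66 in control vehicle tumors. Control BRAFi tumors were its 3 highest, and the interaction of -0.52 ± 0.332 (SE, unadjusted p 0.147, adjusted p 0.956) was -0.24 without PD-L2 BRAFi tumor 2. Cd80, which binds CD28, CTLA-4 and PD-L1, had -1.82 ± 0.812 (SE, unadjusted p 0.0478), with a value of 28.2 FPKM in control BRAFi tumor 2 and at most 8.71 FPKM in the other 11. Its interaction was -1.16 without PD-L2 BRAFi tumor 2.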

How the data were processed

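Expression was measured in 12 tumors, 3 in each of 4 groups taken from the sample labels. The authors deposited 1 table of FPKM values with a row per gene and a column per library. The submitters' processing notes list mm9 as genome build and Cuffdiff, Cuffnorm, TopHat2 and TopHat as tools; versions, settings and annotation are not given there. Per the labels, libraries were unstranded and made from poly(A) RNA, so overlapping genes and near-identical copies can share reads. The labels give paired-end and the series design single-end reads. Counts are not part of the table, so depth is unknown and no counting interval is given; errors are SEs of the fit or ranges over tumors.

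From these values, log2(FPKM + 1) was computed for genes that averaged 1 FPKM or more. A mean per group was fitted in R 4.3.3 with limma 3.58.1, whose empirical Bayes step used a trend of variance on mean, and the interaction was tested two-sided with Benjamini-Hochberg adjustment over all tested genes at a threshold of 0.05. The fit was tested on simulated data. Adjusted p-values in the text are from this fit unless stated. Replicate numbers were checked for pairing and not used as a block.

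The comparison, its genes and the 63 lists (1102 genes, 1097 in the table, 921 tested) were chosen with earlier results of these data known. Genes were named by a rule: Pdcd1lg2; the 12 coding genes with the smallest interaction p in each direction, with an absolute interaction of at least 1 and a highest group mean of 5 FPKM or more; up to 6 genes with opposite responses in each direction; up to 3 per list; a set of pathway genes; and up to 4 small RNA genes. Some genes that the rule names are not reported here. Mir132 and the genes around Mir212 were added after values had been seen. Alternatives were other pseudocounts, filters, scalings, moderation, library weights, a replicate block, removal of a length trend and leaving out each tumor.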

Additional observations from a re-analysis of the deposited data

Results flagged for a closer look

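The interaction of Mir212 (4.18) and that of Mir1940 (3.61), both on the log2(FPKM + 1) scale, are set out again because the BRAFi responses of PD-L2 and control tumors differed by limma's test of the difference itself. Both genes were above 0 in 3 of 3 PD-L2 BRAFi tumors and listed at 0 in the other 9, and both were tested only because of their level in that group, so the test is no independent support. They belong to the 230 of 264 tested small RNA genes that were listed at 0 in at least 1 tumor. The part of failed estimates in these zeros was not tested.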

How the results depend on the processing

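Mir212 passed in all 23 alternative fits that tested it (adjusted p up to 0.0230), and Mir1940 in 21 of 22; at a pseudocount of 0.1 Mir1940 was at 6.82 with an adjusted p of 0.0633, which left 1 call; with 9 of 12 values at 0 this is no sign of stability. Calls numbered 0 with a minimum of 5 FPKM, 0 without small RNA genes and 0 over genes above 0 in all 12 tumors (chosen after seeing the data), since none of these tests either gene, and 1 with the length trend removed, where Mir1940 has no length. Library weights gave 27 calls (14 positive and 13 negative) and 2545 unadjusted p under 0.05, with weights from 0.327 to 15.7; the estimation of these weights stopped before it converged, and the cause was not tested. Leaving out single tumors gave 2 to 5 calls (5 without PD-L2 vehicle tumor 1 or control BRAFi tumor 3, 4 without PD-L2 BRAFi tumor 1). Those fits had 368 to 898 unadjusted p under 0.05 and an r of both responses of 0.356 to 0.589. They gave 42 to 98 opposite responses, a count that cannot fall when a tumor is left out. Other counts were 906 unadjusted p with no filter, and 16 (at least 5 FPKM) and 46 (no filter) opposite responses. The r was 0.451 at a pseudocount of 0.1, 0.656 without small RNA genes and 0.648 over genes above 0. Rescaling to equal sums moved the median interaction of all genes to -0.15.

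The Pdcd1lg2 interaction was 0.69 with library weights and -1.19 to 0.32 with single tumors left out. Dusp6 was at -0.0799 with equal sums, -0.32 with library weights and -0.10 to 0.30 with tumors left out, and Ddx3y at 0.66 with library weights and -0.94 to 0.37 with tumors left out. Of 112 named genes that did not pass, 15 passed in 16 of 2888 fits, 14 of these with library weights. Of 60 list medians, 25 kept 1 sign in every alternative.

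Deviations of same-numbered tumors of different groups had an r of -0.37 to 0.24 over 18 pairs. Differently numbered tumors had -0.29 to 0.39 over 36 pairs. An r above 0.1 was found in 6 of the 18 and 8 of the 36 pairs. With 3 tumors a group this shows no clear pairing by number and cannot exclude it. A replicate block gave 2 calls and 586 unadjusted p under 0.05. Depth is unknown. With 3 tumors a group the median SE was 0.236, and the adjustment ran over 12117 genes. An interaction far above its SE therefore need not pass. Gng11, at 1.95 ± 0.282 (SE), had an adjusted p of 0.126 by limma.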
